A study of Mus musculus with 6 samples.

Results

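Caspases are cysteine proteases made as inactive zymogens that cut their targets after aspartate. The genes described here were the 8 rows of the deposited gene table with the symbols Casp1, Casp2, Casp4, Casp6, Casp8, Casp9, Casp12 and Casp14, out of 32285 genes measured. They cover the main branches of the family. Casp8 starts the death receptor branch, Casp9 the mitochondrial branch at the apoptosome, and Casp2 a stress branch at the PIDDosome. Casp6 is an executioner that cuts structural proteins such as nuclear lamins. Casp1, Casp4 and Casp12 form the inflammatory group, in which Casp1 is activated by inflammasomes and matures interleukin-1β, and mouse Casp4 (also called caspase-11) senses bacterial lipopolysaccharide. Casp14 is restricted to cornifying epithelium, where it takes part in the breakdown of filaggrin and not in apoptosis.

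Levels were taken from single-cell RNA sequencing of dorsal skin of wildtype FVB males aged 55 to 57 days. The skin was shaved and waxed, which starts a new hair cycle, and cells were collected before it (0 h) and after 4 h, 16 h and 2 d, then again after 4 d and 6 d. Each time point was 1 library of cells from 2 mice, processed apart and mixed in equal number, so that no test between 2 time points was possible and intervals at single time points cover counting error only. All animals were of 1 genotype, strain and sex, and an undepilated control beyond the 0 h library was not analysed here. The values are unique molecular identifiers (UMIs), which count captured transcript ends. They are given as CPM, the UMIs of a gene scaled to a common total over all UMIs of the same cells, a scale on which 1 gene can be compared across cells but on which the 8 genes should not be ranked against each other.

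The 6 libraries held 72634390 to 112370376 UMIs in 7307 to 13878 cell barcodes, and 50502 of 61031 barcodes were analysed after removal of low-quality cells and predicted doublets. Pairs of libraries shared 7 to 47 barcodes. Cells were clustered without the caspase genes and named from marker lists as basal (IFE.B) and suprabasal (IFE.SB) interfollicular epidermis, granular layer, basal (uHF.B) and suprabasal (uHF.SB) upper hair follicle, outer bulge (OB), inner bulge (IB), sebaceous gland (SG), T cells, Langerhans cells, melanocytes, and dermal papilla with fibroblasts. Each name means a cluster that resembles that type by its markers. The markers of each list that were higher in the cluster ran from 5 of 10 in uHF.B to 8 of 8 in granular cells and melanocytes. In a finer clustering of the hair follicle cells, most uHF.B cells lay in clusters led by Col23a1 and by Lpl. Compared with the other hair follicle cells, both had IFE.B as their best match (7 of 10 and 5 of 10 markers higher) and uHF.B as the next. The leading genes of OB included Krt28, a marker of the inner root sheath. The make-up of the OB and IB clusters changed with time: cells led by Krt35, Dcn and Tagln made up 934 of 3081 OB cells at 4 d and 0 of 385 at 0 h. Median UMIs per cell differed between types. They were 1824 to 5004 in melanocytes, 2020 to 2711 in T cells and 21274 to 37384 in granular cells. Shares of cells with a UMI are therefore given after thinning to 2000 UMIs. Such thinned shares cover only the 48443 of 50502 analysed cells that reached this depth, and the rest do not count in them.

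By the annotation of the mm10 assembly, Casp1 (chromosome 9, 5298517 to 5307265), Casp4 (5308828 to 5336783) and Casp12 (5345430 to 5373032) lie side by side on the plus strand with no other annotated gene between them. The gap from Casp1 to Casp4 is 1562 bases and that from Casp4 to Casp12 is 8646 bases. Casp14 lies on the minus strand of chromosome 10, from 78711991 to 78718294, with up to 7 exons in an annotated transcript. Casp2 is on chromosome 6 (42264985 to 42282508), Casp6 on chromosome 3 (129901425 to 129914103), Casp8 on chromosome 1 (58795374 to 58847503) and Casp9 on chromosome 4 (141793612 to 141815976), all on the plus strand. Casp9 overlaps Cela2a and Ctrc, which lie on the opposite strand, by 1015 bases.

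The sequences upstream of Casp4 and Casp14, the 2 genes with the largest differences between cell types below, are shown as RefSeq gives them for GRCm38.p6. They run 5′ to 3′ on the strand of the gene and end at the base before the annotated gene. Capitals mark matches to an NF-kB motif searched as GGGNNNTCC on both strands.
Casp4 chr9:5308599-5308827: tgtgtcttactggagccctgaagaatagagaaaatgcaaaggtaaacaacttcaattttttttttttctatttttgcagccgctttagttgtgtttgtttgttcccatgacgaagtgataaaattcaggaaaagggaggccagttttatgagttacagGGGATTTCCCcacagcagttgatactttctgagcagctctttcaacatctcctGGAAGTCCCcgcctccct
Casp14 chr10:78718295-78718543: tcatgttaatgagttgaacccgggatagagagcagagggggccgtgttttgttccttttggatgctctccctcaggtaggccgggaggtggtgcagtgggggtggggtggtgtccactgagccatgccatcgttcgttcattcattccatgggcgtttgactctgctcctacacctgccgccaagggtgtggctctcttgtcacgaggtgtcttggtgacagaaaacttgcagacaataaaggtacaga

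The Casp4 sequence holds 3 matches, and 2 of them overlap on opposite strands. The Casp14 sequence holds no match to this motif, to an AP-1 motif (TGANTCA), to an interferon regulatory factor motif (GAAA, any 2 bases, GAAA) or to a GC box (GGGCGG). Over 32851 windows of 250 bases before annotated start sites, 15.2% held the NF-kB motif, 6.75% the AP-1 motif, 2.98% the interferon regulatory factor motif and 32.7% the GC box. The Casp1 and Casp12 windows held no match to any of the 4 motifs, and the Casp9 window held 4 GC boxes. The Casp2 window held an NF-kB match and a GC box, and the Casp6 window a GC box. No window was available for Casp8. Matches describe the letters only.

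**Figure D1:**
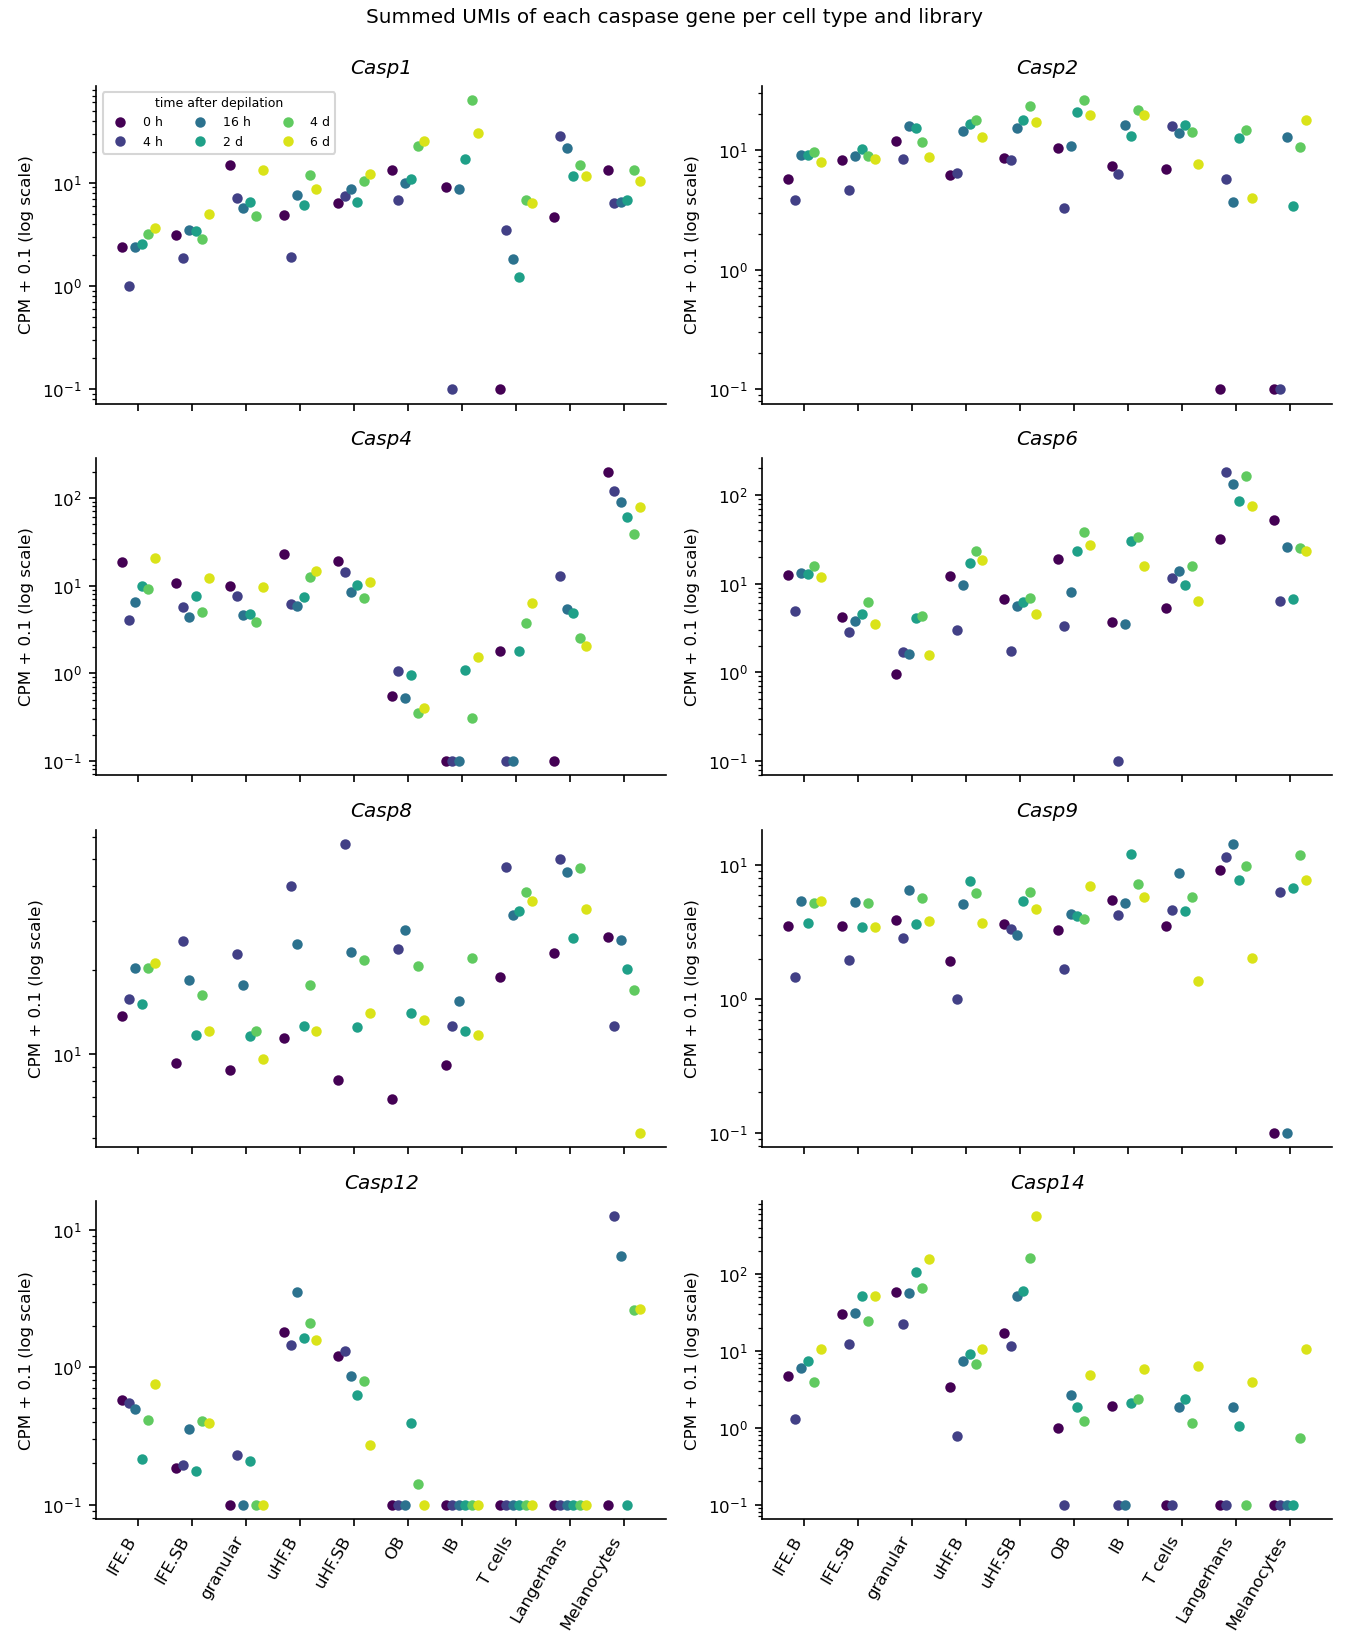
CPM plus 0.1 (log scale) of each gene in 10 cell types, with 1 point per library coloured by time after depilation. Casp4 was 38.8 to 196 CPM in melanocytes and 0.251 to 0.956 CPM in OB, and Casp14 reached 567 CPM in uHF.SB at 6 d.

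Casp14 was highest in the granular layer and in the cells named uHF.SB. In granular cells it was at 57.4, 22.2, 56.5, 105, 64.7 and 158 CPM from 0 h to 6 d. In uHF.SB it was at 16.7, 11.3, 52.0, 59.6, 163 and 567 CPM at the same times. The granular level was above that of uHF.SB up to 2 d and below it at 4 d and 6 d, when most Casp14 UMIs of uHF.SB lay in cells with granular or IFE.SB markers, as described below. In IFE.SB the level was 30.4, 12.1, 31.3, 51.0, 24.2 and 50.7 CPM. Basal cells had little: IFE.B ranged from 1.21 to 10.3 CPM, and uHF.B from 0.677 to 10.3 CPM.

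Differences in Casp14 between suprabasal and basal cells were tested with edgeR on summed UMIs of 10 cell types in 6 libraries, with the library as a block. Casp14 was higher in IFE.SB than in IFE.B by 2.90 ± 0.32 (log2, SE; adjusted p = 1.32e-10) and higher in uHF.SB than in uHF.B by 4.20 ± 0.35 (adjusted p = 3.07e-14). It was higher again in granular cells than in IFE.SB by 1.28 ± 0.30 (adjusted p = 0.000418), a difference that reached adjusted p = 0.0618 with no replicate block. The step from basal to suprabasal was 1.30 ± 0.45 larger (log2) in the upper follicle than in the epidermis, which did not pass the threshold (adjusted p = 0.115). In OB the gene was lower than in uHF.B (-2.12 ± 0.43, adjusted p = 0.000119; 0.0820 with no replicate block) and than in IFE.B (-2.11 ± 0.42, adjusted p = 3.79e-05; 0.0584 with no replicate block).

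Casp14 in uHF.SB rested on 61 UMIs in 352 cells at 0 h and on 6671 UMIs in 1206 cells at 6 d. The ratio of CPM was 33.9 (95% counting interval 26.4 to 44.4). The share of uHF.SB cells with a Casp14 UMI, after thinning, was 2.56% at 0 h (exact interval 1.18 to 4.80) and 20.9% at 6 d (18.6 to 23.3), and it was 12.5% and 42.3% without thinning. The UMIs were unevenly spread, since the 10% of cells with the highest counts held 86.4% of them at 6 d, with up to 202 UMIs in 1 cell. Cells with at least 5 UMIs made up 0.284, 0.358, 2.89, 2.79, 6.02 and 14.4% of uHF.SB in order of time.

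The finer clustering of the hair follicle cells placed most of these UMIs in 2 clusters. Neither of them had uHF.SB as its best match when compared with the other hair follicle cells. At 6 d, 44 cells led by Sprr2d, Flg2 and Sprr2f, which encode cornified envelope and filaggrin-like proteins, held 3619 Casp14 UMIs in uHF.SB, or 54.2% of the total. This cluster had 8 of 8 granular markers higher. Without these cells the uHF.SB level was 15, 8.85, 39.9, 57.1, 145 and 286 CPM, which is 19.1-fold higher at 6 d than at 0 h. Cells led by the suprabasal keratins Krt1 and Krt10, with 9 of 9 IFE.SB markers higher, were at 17.1, 10.2, 54.5, 82.1, 297 and 461 CPM in order of time. Cells led by Cst6, Defb6 and Fmo5, the cluster with 10 of 10 uHF.SB markers higher, were at 4.91 CPM at 0 h, 15.7 CPM at 4 d and 41.1 CPM at 6 d, below the granular layer at each of these times. At the coarser resolution of 0.2 the Krt1 and Cst6 cells were 1 cluster with 10 of 10 uHF.SB markers higher. The levels of uHF.SB, and its differences from uHF.B, therefore hold for a mixture of these cells.

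**Figure D2:**
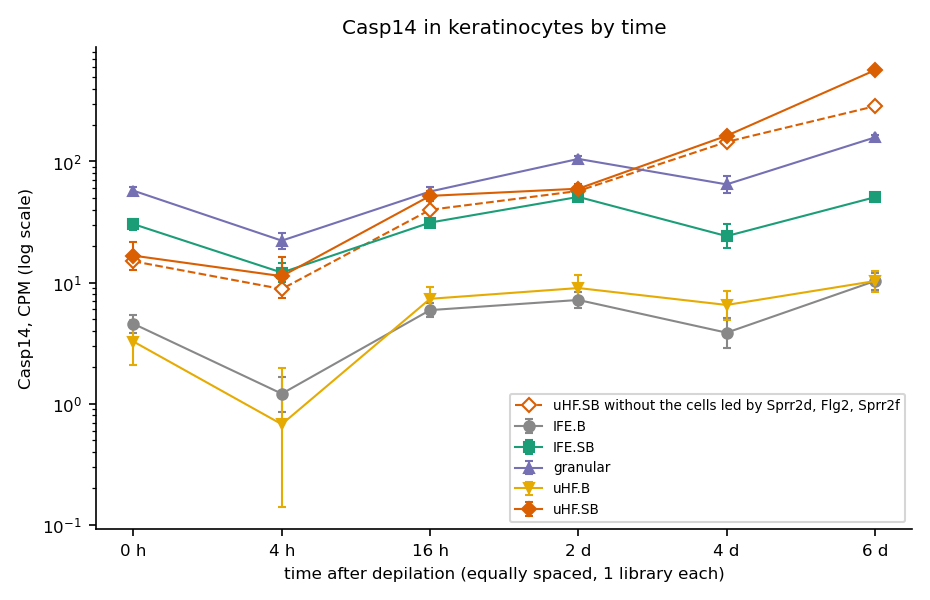
Casp14 in 5 keratinocyte types, as CPM on a log scale against time after depilation with the libraries equally spaced. Bars are 95% Poisson intervals, and the dashed line leaves out the cells led by Sprr2d, Flg2 and Sprr2f, with which uHF.SB ended at 567 CPM and without which it ended at 286 CPM.

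A few Casp14 UMIs were also found in cell types that do not cornify, and free RNA in the suspension was not tested as their source. T cells had 0 UMIs at 0 h and 4 h and 5 UMIs at 6 d (6.29 CPM, interval 2.04 to 14.7), and melanocytes had 4 UMIs at 6 d (10.3 CPM, 2.79 to 26.3). OB was at 4.77 CPM and IB at 5.67 CPM at 6 d. The thinned share in T cells at 6 d was 1.32%, and it covers only T cells with at least 2000 UMIs. Over all T cells at 6 d the median was 2516 UMIs per cell, against 8042 in uHF.SB. The levels of IFE.B and uHF.B at 6 d, each 10.3 CPM, lay within the interval of the T cell value, which rests on 5 UMIs. Those of IFE.SB, granular cells and uHF.SB were above it. Over the 6 libraries T cells were below IFE.B (-2.04 ± 0.62, edgeR adjusted p = 0.00340, or 0.0925 with no replicate block). The genes whose pattern over the 60 sums of cell type and library was most like that of Casp14 were Gltp (Pearson r = 0.90), Calm4 (0.89) and Ggh (0.89), among 10143 genes compared. The points share libraries and depth, so no test is given.

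Casp4 was highest in melanocytes and nearly absent from the OB and IB clusters. In melanocytes it was at 196, 119, 89.3, 60.2, 38.8 and 79.5 CPM from 0 h to 6 d, above the other 9 types of the comparison at each time. These values rest on 14 to 62 UMIs in 29 to 264 cells, and the interval at 0 h ran from 109.7 to 323 CPM. In OB the level was 0.251 to 0.956 CPM, from 1 to 6 UMIs per library, and in IB it was 0 to 1.42 CPM. The share of OB cells with a Casp4 UMI at 4 d was 0.0666% after thinning, against 1.98% in IFE.B. Other keratinocytes lay in between, with 3.93 to 20.3 CPM in IFE.B and 5.78 to 22.7 CPM in uHF.B. The difference of OB from uHF.B was -4.76 ± 0.41 (log2, edgeR adjusted p = 1.33e-13) and that from IFE.B was -4.81 ± 0.41 (adjusted p = 1.27e-14). Melanocytes were above IFE.B by 2.47 ± 0.31 (adjusted p = 1.22e-09), and T cells were below it (-2.32 ± 0.43, adjusted p = 5.04e-06). Langerhans cells were also below IFE.B (-1.0 ± 0.44, adjusted p = 0.0469), a call that 8 of 13 alternatives did not keep.

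Over time Casp4 was lower after depilation and then higher again in the basal epidermis. IFE.B was at 18.4, 3.93, 6.33, 9.73, 9.12 and 20.3 CPM in order of time. In uHF.B the values were 22.7, 6.09, 5.78, 7.21, 12.3 and 14.7 CPM. Between 0 h and 16 h the level went from 10.7 to 4.30 CPM in IFE.SB, from 9.79 to 4.52 CPM in granular cells and from 19.2 to 8.42 CPM in uHF.SB. The 3 genes most like Casp4 over the sums were Bace2 (r = 0.78), Gm47316 (0.74) and Sat1 (0.73).

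Casp1 had its highest means in the Langerhans, OB and IB clusters, and the make-up of OB and IB changed with time. Langerhans cells were at 4.55, 28.4, 21.4, 11.5, 14.6 and 11.6 CPM, on 1 to 20 UMIs per library, and exceeded IFE.B by 2.75 ± 0.41 (log2, edgeR adjusted p = 8.90e-08). OB was at 13.1, 6.69, 9.75, 10.7, 22.5 and 25.2 CPM, which was 2.28 ± 0.32 above IFE.B (adjusted p = 2.92e-08) and 0.93 ± 0.31 above uHF.B (adjusted p = 0.0230). The second of these was lost with no replicate block (adjusted p = 0.151) and without the 0 h, 2 d or 6 d library (0.0856, 0.0646 and 0.114). Granular cells were 1.70 ± 0.32 above IFE.SB (adjusted p = 2.01e-05), and melanocytes 1.42 ± 0.52 above IFE.B (adjusted p = 0.0227), the latter with adjusted p = 0.203 without the 4 d library.

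In IB, Casp1 was at 9.04 CPM at 0 h (5 UMIs), with 0 UMIs at 4 h (up to 6.27 CPM), and at 8.53, 17.0, 62.7 and 30.6 CPM from 16 h to 6 d. The later values came with a change in the cells of this cluster. Cells led by Penk, Wfdc18 and Pinlyp were absent from IB up to 16 h and made up 621 of 853 IB cells at 4 d. Over the whole Penk cluster the level was 36.9, 68.6 and 38.9 CPM at 2 d, 4 d and 6 d, and at 6 d 305 of its 382 cells lay in IB. The Fgf18, Sncg and Smoc1 cells, present at all times, were at 12.4 CPM at 0 h and 18.3 CPM at 4 d. Compared with the other hair follicle cells, the Penk cells best matched uHF.SB (5 of 10 markers higher) and the Fgf18 cells OB (6 of 10). The level in IB as a whole and its make-up therefore cannot be told apart. Cells led by Scrg1, Mfap2 and Gnmt, of which 1552 of 1572 lay in OB at 4 d, were at 21.8 CPM at 0 h (7 UMIs) and 40.6 CPM at 4 d (444 UMIs). Patterns most like that of Casp1 were those of Acot1 (r = 0.73), Mapk3 (0.70) and Rab9 (0.69).

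Casp12, which is linked to the endoplasmic reticulum, was rare. The analysed cells held 24 to 68 Casp12 UMIs per library, or 0.306 to 0.711 CPM, and the gene did not pass the filter on low counts of the comparison between types. Of the types with at least 10 UMIs, uHF.B was highest, at 1.70, 1.35, 3.43, 1.53, 1.98 and 1.47 CPM. Within it the UMIs lay mainly in cells led by Lpl and Il7, which were at 2.86 to 7.58 CPM. The larger cluster led by Col23a1, Ntrk2 and Cyp26b1 was at 0 to 0.649 CPM. Both clusters had IFE.B as their best match among the marker lists, as given above. Melanocytes had 8 Casp12 UMIs in all. IB, T cells and Langerhans cells had 0 UMIs in every library, which at 4 d allows up to 0.625 CPM in IB, 1.56 CPM in T cells and 7.30 CPM in Langerhans cells. The genes most like Casp12 were Lpl (r = 0.74), Adgre5 (0.74) and Gm47316 (0.65).

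Casp6 was highest in Langerhans cells, at 31.9, 180.2, 132, 84.5, 165 and 75.1 CPM. The level at 4 h was above that at 0 h by a ratio of 5.66 (interval 2.67 to 14.4), where 0 h held 7 UMIs in 42 cells. Langerhans cells exceeded IFE.B by 3.27 ± 0.35 (log2, edgeR adjusted p = 7.25e-12). Among keratinocytes Casp6 was lower in suprabasal cells. IFE.B was at 4.85 to 15.6 CPM and IFE.SB at 2.71 to 6.06 CPM (difference -1.34 ± 0.33, adjusted p = 0.00113), and the granular layer was at 0.868 to 4.16 CPM. In the same direction, uHF.SB was below uHF.B (-1.18 ± 0.35, edgeR adjusted p = 0.00509), which reached adjusted p = 0.0548 without the 6 d library. Casp6 and Casp14 thus differed in opposite directions, both between IFE.B and IFE.SB and between uHF.B and uHF.SB. As given above, most uHF.B cells lay in finer clusters that best matched IFE.B, and uHF.SB held cells that best matched IFE.SB or granular cells.

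In OB as a whole Casp6 was lowest at 4 h and highest at 4 d. It was at 19.0, 3.19, 7.84, 23.1, 37.9 and 27.2 CPM. At 4 d, cells led by Krt35, Dcn and Tagln were at 44.1 CPM, cells led by Scrg1, Mfap2 and Gnmt at 39.5 CPM and cells led by Krt24, Cck and Cd34 at 13.1 CPM. The Krt24, Cck and Cd34 cells had no high point at 4 d: they were at 14.8 CPM at 0 h, 2.40 CPM at 4 h and 22.2 CPM at 6 d. Cells led by Aspn, Tgfb2 and Col4a4 were at 35.5 CPM at 0 h and 30.7 CPM at 4 d. The Krt24, Cck and Cd34 cluster made up 265 of 385 OB cells at 0 h and 156 of 3081 at 4 d, and the part of this shift in the OB level was not tested. Patterns most like that of Casp6 were those of Sh3bgrl (r = 0.86), Hnrnpll (0.85) and Tmem176b (0.85).

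Casp8, the initiator of the death receptor branch, was higher at 4 h than at 0 h in keratinocytes: uHF.SB went from 7.95 to 56.3 CPM (ratio 7.08, interval 4.72 to 11), uHF.B from 11.3 to 39.7 (3.50, 2.67 to 4.62), OB from 6.78 to 23.6 (3.48, 1.98 to 6.52), IFE.SB from 9.22 to 25.3 (2.74, 2.19 to 3.46) and granular cells from 8.68 to 22.7 (2.62, 2.05 to 3.35). In IFE.B the ratio was 1.16 (1.01 to 1.33). OB also changed in make-up: at 4 h 34.6% of its cells were led by Cpa4, Anxa3 and Krt8 and 11.9% by Wfdc3, Bcl2l15 and Cldn3, both 0% at 0 h, and Krt24, Cck and Cd34 cells went from 68.8% to 23.9%. Within the latter Casp8 was at 4.69 CPM at 0 h and 12 CPM at 4 h (7 and 10 UMIs). The whole Wfdc3 cluster was at 54.9 CPM at 4 h, when 78 of its 113 cells lay in OB. No level is given here for the Cpa4 cells, the larger of the new parts. The thinned share of uHF.SB cells with a Casp8 UMI was 1.42% at 0 h and 11.4% at 4 h. By 2 d uHF.SB was at 12.4 CPM and uHF.B at 12.5 CPM. Sebaceous cells were at 54.0 CPM at 4 h and 37.9 CPM at 16 h and at 12.4 to 18.0 CPM from 2 d on, after 11 UMIs in 13 cells at 0 h (57.2 CPM). Among the 10 types of the comparison, Casp8 had the highest mean in Langerhans cells (22.8 to 49.7 CPM), followed by T cells (18.8 to 46.6 CPM), which exceeded IFE.B by 0.80 ± 0.23 (log2, edgeR adjusted p = 0.00230) and 0.59 ± 0.21 (adjusted p = 0.0122; 0.0773 with no replicate block). Vasp (r = 0.74), Actr2 (0.74) and Ssr1 (0.73) were most like it.

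Casp9 and Casp2 were detected in all 10 types. Casp9 was at 1.37 to 5.27 CPM in IFE.B and 1.93 to 14.3 CPM in Langerhans cells, which were higher by 1.09 ± 0.35 (log2, edgeR adjusted p = 0.00725; 0.158 without the 4 h library). Sebaceous cells were higher than IFE.B by 1.01 ± 0.26 (adjusted p = 0.000962). Casp2 was at 3.19 to 26.0 CPM in OB and 3.70 to 9.50 CPM in IFE.B, a difference of 0.70 ± 0.21 (adjusted p = 0.00577) that reached 0.0626 without the 4 d library and 0.0966 with no replicate block. Granular cells exceeded IFE.SB in Casp2 by 0.79 ± 0.21 (adjusted p = 0.00187; 0.10 with no replicate block). Between 0 h and 4 d, Casp2 went from 10.4 to 26.0 CPM in OB, from 8.50 to 23.5 CPM in uHF.SB and from 6.1 to 17.7 CPM in uHF.B. Over the same times 27.4% of genes were at least 2-fold higher in OB, 12.6% in uHF.SB and 15.3% in uHF.B. The make-up of OB also changed, as given above, and its part in the Casp2 level was not tested. The genes most like Casp9 were Phkb (r = 0.78), Gpr137 (0.76) and Sirt5 (0.74), and those most like Casp2 were Arap1 (0.79), Dera (0.72) and Fzr1 (0.71).

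**Figure D3:**
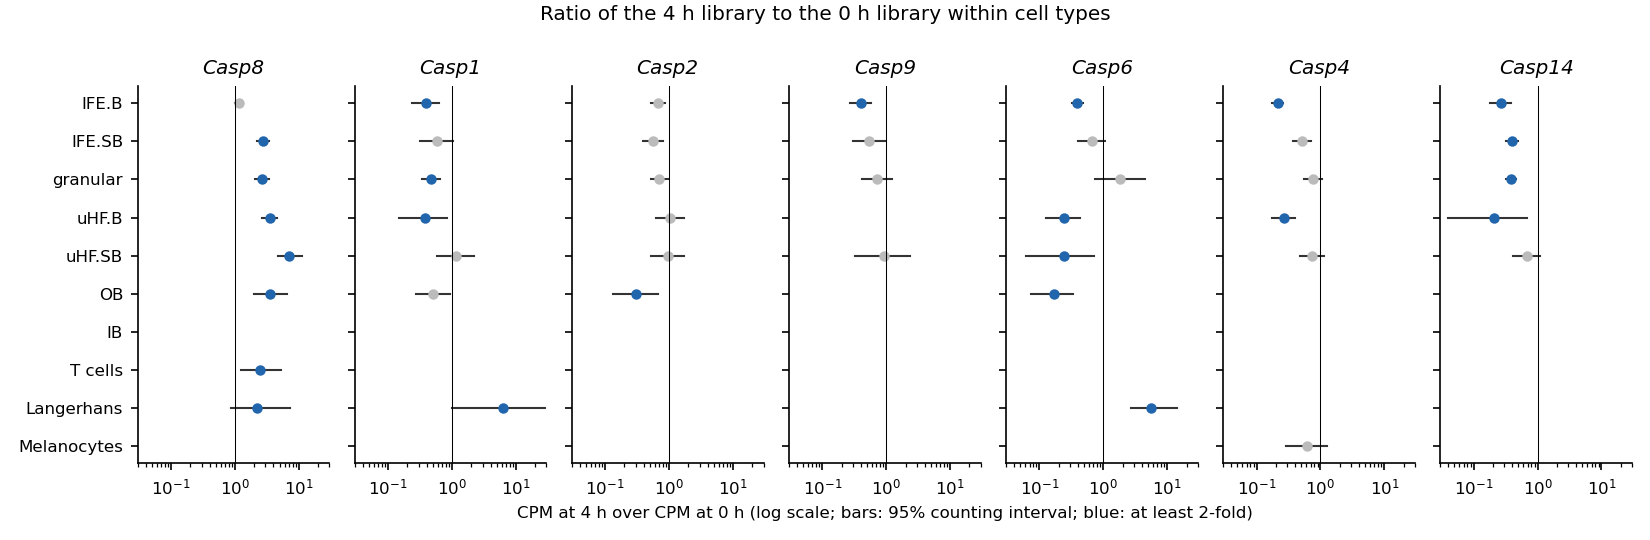
Ratio of CPM at 4 h to CPM at 0 h (log scale) for 7 genes. Types shown for a gene had at least 20 cells in each library and at least 20 UMIs over both. SG, with 13 cells at 0 h, is not shown. Bars are 95% counting intervals and blue points differ at least 2-fold: Casp8 lay above 1 in 8 of 8 types, and Casp14 below 1 in 5 of 5.

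The 4 h library as a whole differed widely from the 0 h library, which sets the scale for these ratios. In IFE.B, 15.6% of 12585 genes were at least 2-fold higher at 4 h and 27.0% at least 2-fold lower; of the 8 caspase genes, 0 were higher and 5 were lower. In uHF.B, 18.4% of genes were higher and 21.6% lower, with 1 caspase gene of 6 higher and 4 lower. In uHF.SB, 18.2% were higher and 15.6% lower, with 1 of 7 higher (Casp8) and 1 lower (Casp6). In IFE.SB, 19.6% were higher and 17.6% lower, with 1 of 7 higher and 1 lower. In granular cells, 16.4% were higher and 12.4% lower, with 1 of 7 higher and 2 lower, and in OB 16.9% were higher and 20.2% lower, with 1 of 4 higher and 2 lower. Casp8 was at least 2-fold higher in 7 of 8 types, the exception being IFE.B. SG, with only 13 cells at 0 h, was not among the 8, and its Casp8 level was not higher at 4 h, as given above. Casp14 was at least 2-fold lower in 4 of 5 types, Casp6 in 4 of 7 and Casp1 in 3 of 7. In T cells 18.9% of genes were at least 2-fold higher and 6.03% lower, with Casp8 the 1 caspase gene measured. In Langerhans cells 20.9% were higher and 9.48% lower, and 3 of 3 caspase genes were higher: Casp6, Casp8 and Casp1, the last from 1 UMI at 0 h (ratio 6.24, interval 0.998 to 258). At 6 d the background was smaller in uHF.SB, where 8.98% of genes were at least 2-fold higher than at 0 h and 11% at least 2-fold lower, with Casp14 and Casp2 the 2 caspase genes of 7 that were higher.

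**Figure D4:**
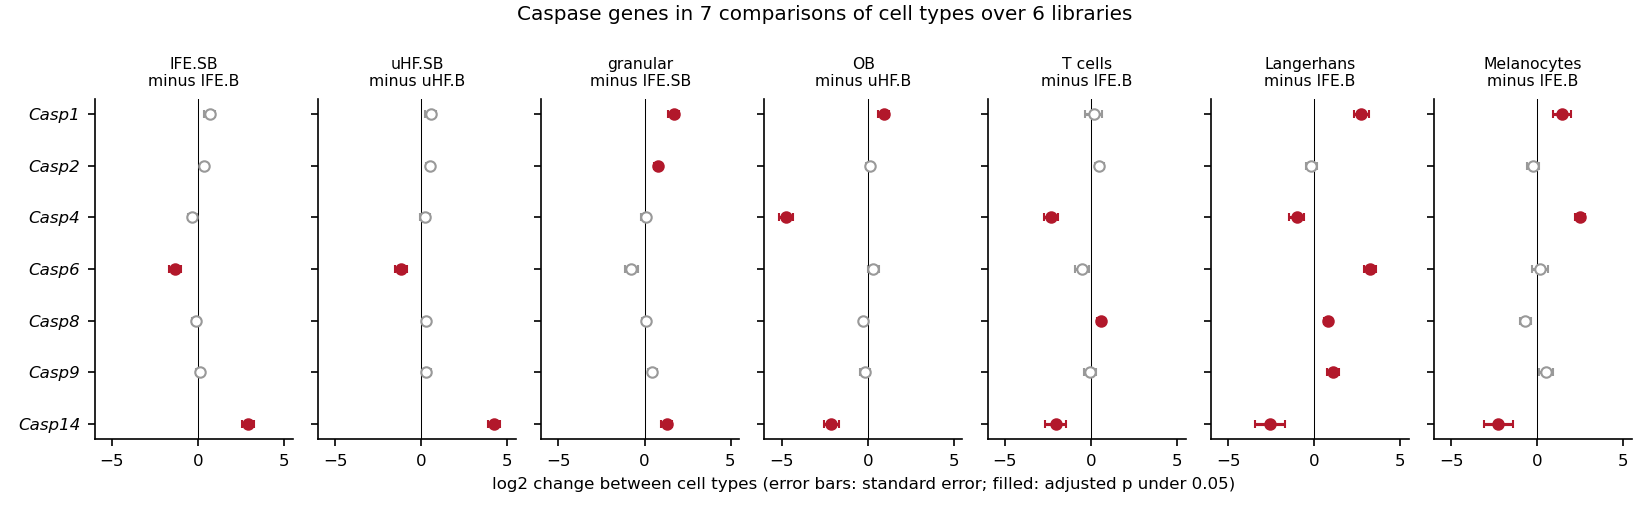
Difference in log2 level of 7 genes in 7 comparisons of cell types over 6 libraries. Points are edgeR estimates with standard errors derived from the F statistic, filled where the adjusted p was under 0.05. Casp14 ran from -2.57 in Langerhans cells against IFE.B to 4.20 in uHF.SB against uHF.B.

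In the comparisons of cell types 7 of the 8 genes were tested, among 13103 genes. In IFE.SB against IFE.B, 2 of the 7 passed the threshold, where 29.0% of all genes did. The same count in uHF.SB against uHF.B was 2 of 7 (39.7% of all genes), in granular against IFE.SB 3 of 7 (41.5%), in OB against uHF.B 3 of 7 (22.4%) and in OB against IFE.B 4 of 7 (36.3%). It was 3 of 7 in T cells (64.1%) and in melanocytes (42.3%) against IFE.B, and 6 of 7 in Langerhans cells (55.1%). Casp14 was lower than in IFE.B in Langerhans cells (-2.57 ± 0.88, edgeR adjusted p = 0.0112), melanocytes (-2.26 ± 0.85, 0.0275) and T cells (-2.04 ± 0.62, 0.00340), where no library held more than 5 of its UMIs. With no replicate block these reached adjusted p = 0.125, 0.279 and 0.0925. Without the 4 d library 1 of the 7 (Casp4) passed in melanocytes. SG had only 13 cells at 0 h and was compared in a fit with at least 10 cells per library, in which 4 of 7 passed (47.2% of 13306 genes): Casp9 and Casp2 (0.63 ± 0.21, adjusted p = 0.0104) were higher than in IFE.B, and Casp4 (-0.77 ± 0.30, 0.0320) and Casp14 (-2.61 ± 0.46, 3.36e-06) were lower. The step from basal to suprabasal differed between upper follicle and epidermis for 3.16% of genes and for 0 of the 7, with 1 of the 7 (Casp14) at an unadjusted p under 0.05 and 0 called by DESeq2.

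For each gene, the order of the 10 types by their mean log2(CPM + 1), which is not always that of the mean CPM, was compared pairwise between neighbours with an exact paired sign-flip permutation test over the 6 libraries, which cannot go below p = 0.03125. No neighbouring pair passed after adjustment over the 9 pairs of a gene, but at least 6 of the 9 pairs would have had to reach the smallest p for any to pass, so this says little of whether neighbours differ. The pairs at the smallest p were, for Casp4, melanocytes above uHF.SB in 6 of 6 libraries with no overlap (adjusted p = 0.281); for Casp14, IFE.SB above uHF.B with no overlap and IFE.B above OB (each adjusted p = 0.141); for Casp12, uHF.B above uHF.SB with no overlap and IFE.B above IFE.SB (each 0.141); for Casp6, IFE.SB above granular cells (0.281); and for Casp1, uHF.B above IFE.SB (0.281). Every other pair of neighbours overlapped in level between libraries.

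The trend over time was fitted as a smooth curve of hours in each of 6 cell types with edgeR, which leaves 2 residual degrees of freedom. None of the caspase genes passed in any of the 6 types. The share of all genes that passed was 0% in IFE.B, IFE.SB, uHF.B and uHF.SB, 0.0263% in OB and 0.0513% in T cells. The lowest value was that of Casp14 in uHF.SB (edgeR adjusted p = 0.593), with a trend of 5.02 on the log2 scale from the first library to the last. It was 1 of 477 genes at an unadjusted p under 0.05 in uHF.SB, and no other caspase gene reached that p in any of the 6 types. With the DESeq2 likelihood ratio test, Casp14 in uHF.SB passed (adjusted p = 5.15e-13), as did 137 genes in all, and 0 caspase genes passed in the other types. Over all alternatives the adjusted p of Casp14 in uHF.SB ran from 5.15e-13 to 0.671, and 8 of 12 called it. Among these were the 6 edgeR fits that each left out 1 library (2.68e-09 to 0.0396). Those 6 fits have fewer residual degrees of freedom than the full fit. They called 11 to 481 genes in uHF.SB, where the full fit called 0, so their calls carry little weight for Casp14. The fit over all 6 libraries is the one reported.

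The partners of the caspases were counted from gene lists in 3 comparisons. In IFE.SB against IFE.B, where 13.9% of all genes rose and 15.1% fell, the genes of filaggrin processing, the pathway in which Casp14 acts, rose in 7 of 9 cases and fell in 0, with a median change of 1.64 (log2) against 0.02 over all genes. Klk5, a kallikrein of desquamation, rose by 3.03 ± 0.34 (edgeR adjusted p = 2.99e-10), from 1.53 ± 0.719 CPM in IFE.B to 11.9 ± 7.51 in IFE.SB (SD, n = 6), and Blmh, which degrades filaggrin peptides, by 0.92 ± 0.17 (adjusted p = 2.54e-05). Gasdermins other than Gsdmd rose in 4 of 6 and fell in 0, led by Gsdma (3.96 ± 0.49, adjusted p = 4.39e-09), with Gsdmc4 (3.54 ± 0.54, 1.92e-06) the smallest of the 4. Among the sensors and adaptor of inflammasomes 1 of 6 rose and 0 fell. It was Pycard, the adaptor that binds Casp1, which rose by 1.81 ± 0.22 (adjusted p = 4.25e-09), from 169 ± 66.5 to 509.8 ± 165 CPM. Of the inflammatory caspase substrates 1 of 4 fell: Gsdmd, which forms pores once cut by Casp1 or Casp4, changed by -3.14 ± 0.74 (adjusted p = 0.000694) at a mean of 0.453 CPM in IFE.B and 0.0611 CPM in IFE.SB.

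In the apoptosis pathways the genes that passed over the same step fell, and executioner substrates changed in both directions. In the mitochondrial pathway 0 of 9 rose and 2 fell, the pore formers Bak1 (-0.76 ± 0.21, adjusted p = 0.00319) and Bax (-0.60 ± 0.17, 0.00519). In the death receptor pathway 0 of 10 rose and 3 fell, from the ligand Tnfsf10 (-2.85 ± 0.53, 2.76e-05) to the receptor Fas (-0.91 ± 0.35, 0.0447). In the list of executioner substrates 2 of 7 rose, among them the actin-severing protein Gsn (1.18 ± 0.24, edgeR adjusted p = 0.000111), and 3 fell. Among the latter was Dffb (-0.73 ± 0.25, 0.0251), the nuclease bound by the substrate Dffa and not a substrate itself. The necroptosis kinase Ripk3 fell (-1.46 ± 0.32, 0.000266), as 1 of 2 in its list, and Xbp1 (0.58 ± 0.19, 0.0162) and Ern1 (0.55 ± 0.21, 0.0400) rose as 2 of 6 genes of endoplasmic reticulum stress. Caspase inhibitors (4 genes) and PIDDosome genes (2) had no member that passed.

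In uHF.SB against uHF.B, 20.2% of all genes rose and 19.6% fell, with a median of -0.01. These counts hold for the mixture of cells in uHF.SB described above, which included cells with granular and IFE.SB markers. Filaggrin processing rose in 9 of 9 cases, with a median change of 4.72 (log2), and the gasdermins rose in 5 of 6 and fell in 1, with a median of 2.34. Inflammatory caspase substrates rose in 3 of 4 cases and fell in 1, with a median of 2.70. They are named here after their values were seen: the interleukin genes Il1a (3.15 ± 0.61, edgeR adjusted p = 4.15e-05), Il1b (2.71 ± 0.57, 0.000114) and Il18 (2.68 ± 0.46, 3.64e-06) rose, and Gsdmd fell (-1.44 ± 0.56, 0.0350). Of the inflammasome sensors and adaptor 2 of 6 rose, and of the endoplasmic reticulum stress genes 3 of 6. The mitochondrial pathway had 0 of 9 that rose and 3 that fell, the death receptor pathway 1 of 10 in each direction, and the executioner substrates 2 of 7 in each direction. Caspase inhibitors rose in 1 of 4 cases, necroptosis genes fell in 1 of 2, and PIDDosome genes had none of 2 that passed.

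In OB against uHF.B, 13.1% of all genes rose and 9.30% fell. In the mitochondrial pathway Bak1 fell (-1.04 ± 0.22, edgeR adjusted p = 0.000209), as 1 of 9, and in the death receptor pathway Fas fell (-1.69 ± 0.40, 0.000928), as 1 of 10. The inhibitor Birc3 fell (-1.13 ± 0.31, 0.00404), as 1 of 4, and the executioner substrates Satb1 (-1.84 ± 0.33, 1.16e-05) and Dffa (-0.73 ± 0.21, 0.00766) fell, as 2 of 7. In filaggrin processing Prss8 rose (1.13 ± 0.29, 0.00258) and Klk5 fell (-2.35 ± 0.40, 6.60e-06), with 7 of 9 not passing. Nlrp1a, a sensor of inflammasomes, fell (-1.31 ± 0.46, 0.0331), as did Zbp1 (-3.49 ± 0.76, 0.000418), a sensor of necroptosis at a mean of 1.13 CPM in uHF.B and 0.0547 CPM in OB. Gsdma rose (2.39 ± 0.60, 0.00205). Aim2 passed as higher, with 0 UMIs in uHF.B and a mean of 0.180 CPM in OB, and Gsdmc as lower, with 0 UMIs in OB and a mean of 0.399 CPM in uHF.B, so no fold is given for either.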

How the data were processed

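Dorsal skin cells of 6 time points after depilation were sequenced as 10x libraries. Per the labels, the authors made UMI count matrices with Cell Ranger 6.1.2 on mm10, and these deposited counts were used. The 8 genes and all gene lists were chosen with earlier results of these data known. Cells with 500 to 7000 genes and at most 10% mitochondrial UMIs were kept. Doublets were the top Scrublet scores (scanpy 1.11.5) at 0.8% per 1000 barcodes. Seurat 5.3.0 integrated libraries by reciprocal principal components and clustered cells (resolution 0.2; hair follicle cells 0.4) without 82 caspase and list genes and 415 genes correlated with the cell cycle. Clusters were named by the share of fixed markers that were higher. Levels of finer clusters were taken over all hair follicle cells of the cluster, whichever broader type they had.

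UMIs were summed per type and library (at least 20 cells) and tested with edgeR 4.0.16 (quasi-likelihood, two-sided, Benjamini-Hochberg over all genes, threshold 0.05). Each SE of an edgeR estimate was computed as the size of the log2 change over the square root of its F statistic. Types of 1 library come from the same suspension, so the library was a block. The libraries are time points, and p-values measure the spread between them. Time was a natural spline with 3 degrees of freedom. The comparisons with granular cells, with SG at 10 cells, and between the 2 basal to suprabasal steps were chosen after seeing the data, as was leaving out the Sprr2d, Flg2 and Sprr2f cells. Ratios between libraries used 20 or more UMIs, at least 20 cells in each library and a 2-fold limit. A count of 0 allows 3 counts. Intervals (95%, Poisson or Clopper-Pearson) cover counting error only. Likeness was Pearson's r of log2(CPM + 1) over genes of at least 5 CPM. Named genes were the 8, the largest and smallest passing change of each list in 2 comparisons, and the 3 most alike. DESeq2 1.42.0 was an alternative. Tested on simulated data, edgeR recovered 90.1% of 2-fold changes between IFE.SB and IFE.B (11781 genes). Over time in uHF.SB (11061 genes) it recovered 30.0% of 2-fold and 90.9% of 4-fold changes. The simulated counts had a fixed spread, and their libraries differed only in depth and in the planted changes. These shares therefore do not measure the power of the tests on the real libraries.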

Additional observations from a re-analysis of the deposited data

Results flagged for a closer look

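Cells that resembled dermal papilla and fibroblasts entered no comparison, since no library but that of 4 d held more than 25 of them. UMIs of 6 caspase genes in them were above the 3 counts that a count of 0 allows. At 4 d, 126 such cells held 15 UMIs of Casp8, 6 of Casp2, 5 of Casp1 and 4 of Casp9. At 2 d, 8 cells held 5 UMIs of Casp4, and at 6 d, 25 cells held 5 UMIs of Casp6. Free RNA and cells of other types were not tested as sources of these UMIs.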

How the results depend on the processing

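No caspase gene that passed in the main fit reversed its direction in an alternative, nor did Casp14 in the uHF.SB time course. Other caspase comparisons and the partner genes were not checked for this. With no replicate block, fewer genes passed: 2259 in IFE.SB against IFE.B, 3201 in uHF.SB against uHF.B, 3067 in OB against IFE.B, 1684 in OB against uHF.B, 3073 in granular cells against IFE.SB and 111 for the difference of the basal to suprabasal steps. Without the block, 2 caspase genes passed in OB against IFE.B and 1 each in OB against uHF.B, T cells against IFE.B and granular cells against IFE.SB. With no filter on low counts 5 passed in melanocytes against IFE.B. Leaving out 1 library gave 1 to 5 there, 1 to 3 in uHF.SB against uHF.B, and 194 to 551 genes for the difference of steps. The causes were not tested.

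The time courses had 2 residual degrees of freedom, fewer with 1 library left out, and their counts depended on the fit. The DESeq2 likelihood ratio test called 22 genes in IFE.B, 26 in IFE.SB, 35 in uHF.B, 137 in uHF.SB, 588 in OB and 38 in T cells, with 1 caspase gene in uHF.SB. Time as log2(hours + 1) called 4 genes in uHF.B, 176 in uHF.SB (1 caspase gene), 1205 in OB (2 caspase genes) and 0 in T cells. Time as rank called 6 genes in uHF.SB and 717 in OB (1 caspase gene). With no filter on low counts the counts were 2 in uHF.SB, 118 in OB and 141 in T cells, and clusters at resolution 0.4 gave 12 in OB. Leaving out 1 library gave 0 to 93 genes in IFE.B, 0 to 27 in IFE.SB, 0 to 78 in uHF.B, 11 to 481 in uHF.SB (1 to 2 caspase genes), 0 to 2605 in OB (0 to 3) and 46 to 639 in T cells, the highest without 0 h except in IFE.SB (without 4 h). Depth limits Casp12 and the rare types, in which single libraries held 0 to a few UMIs.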
